A study of Mus musculus with 123 samples.

Results

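The major urinary proteins (MUPs) were followed in mouse liver through 5 transcript clusters, which are sets of array probes summarized to 1 value, out of 41345 on the array. A cluster was taken where the platform annotation gave it the symbol *Mup3*, *Mup4*, *Mup5*, *Mup20*, *Mup21* or *Mup-ps12*, alone or among others, and 5 of these 6 symbols had 1 cluster each, while *Mup4* had none and was not analysed here. The genes were chosen with their differences by diet and by strain in these livers known, so those differences are described with their errors and without a p-value. Where calls of these clusters are counted, they stand beside the share over all clusters and nothing is read from them. Livers of female mice from 22 strains of the Collaborative Cross (CC), in which inbred founders were intercrossed and then bred to new inbred lines, were measured with 1 array per mouse. In all, 63 mice had eaten a high-protein (HP) diet and 60 a high-fat high-sucrose (HS) diet for 8 weeks. All had arrived at 6 to 9 weeks of age, spent 2 weeks on the synthetic chow AIN-76A before the experimental diet and been fasted for 4 h before collection. A strain had 4 to 6 mice, and a strain on 1 diet had 2 or 3.

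MUPs are small lipocalins, barrel-shaped carriers that bind volatile scent molecules. The mouse liver makes them in large amounts, and they pass through the blood into the urine, where they serve in individual and sexual recognition. Their genes lie in a tandem array of near-identical copies and pseudogenes, and in liver they are classical targets of growth hormone acting through the transcription factor STAT5, with higher output in males than in females of many strains. All mice here were labelled female.

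In the RefSeq annotation of GRCm38.p6 the array on chromosome 4 holds 44 genes and pseudogenes named *Mup*, of which 24 are listed as protein coding, *Mup-ps12* and *Mup-ps16* among them. *Mup4* is the first of the 44 in order, and *Mup3* and *Mup21* are the last ones, next to each other. The sequences just before the start sites of *Mup3* and *Mup21* show how alike neighbouring copies are, and they are printed from RefSeq (GRCm38.p6, minus strand, 250 bases, 5′ to 3′), with the TATATAA box in capitals. *Mup3* covers chr4:62087318-62087567 and *Mup21* covers chr4:62150842-62151091.
Mup3: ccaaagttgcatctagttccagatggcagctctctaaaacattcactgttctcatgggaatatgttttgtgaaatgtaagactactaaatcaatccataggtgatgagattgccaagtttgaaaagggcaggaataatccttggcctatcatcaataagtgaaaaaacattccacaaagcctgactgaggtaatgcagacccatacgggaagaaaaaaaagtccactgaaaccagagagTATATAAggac
Mup21: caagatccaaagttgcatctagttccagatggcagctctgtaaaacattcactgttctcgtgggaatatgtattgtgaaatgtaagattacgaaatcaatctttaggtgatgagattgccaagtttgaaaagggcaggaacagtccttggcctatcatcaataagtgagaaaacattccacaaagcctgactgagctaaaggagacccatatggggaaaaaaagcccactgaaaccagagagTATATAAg

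Over the full window of 250 bases before and 50 after the start, *Mup21* matched *Mup3* at 276 of 294 aligned bases (93.9%), and *Mup4* matched *Mup3* at 249 of 279 (89.2%). The TATATAA box stood in all 3 windows and, on either strand, in 3.24% of the 32851 promoter windows of the table. The motif TTCNNNGAA, which STAT5 can bind, was in none of the 3 windows or the 9 windows listed for *Mup-ps12*, against 8.30% of all windows. TATAAA was found for *Mup4* and in 2 of the 9 *Mup-ps12* windows, and in 13.6% of all windows. A match or its absence in such a short window is a description of the letters only.

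The closeness of the copies bears on every value that follows. The platform annotation gives each of the 5 clusters 1 symbol, but probes of 1 copy can bind RNA of others, and a cluster is therefore named here by its symbol without a claim that it measures that copy alone. Strains can also differ in gene copies or in the probed sequence, and these cannot be told apart from a difference in RNA. In whole liver, fewer hepatocytes and less RNA per hepatocyte cannot be told apart either.

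Across the series, array medians lay between 2.97 and 3.16 (log2), and all 8 hepatocyte markers were bright, with means of 11.50 to 13.20. Markers of other tissues were low in most livers. None of the 6 lacrimal and salivary gland markers had a mean above the expression cut of 4.08, whereas 5 mice had a mean over 4 pancreatic acinar markers of 4.15 to 10.3, up to 10.3 on the HP diet and up to 7.49 on the HS diet. A CC059/TauUnc mouse on the HS diet had a profile closest to CC035/Unc. In a CC071/TauUnc mouse on the HP diet *Xist* was 2.72, against at least 9.16 in all others. Its Y-linked genes *Eif2s3y* (0.95), *Kdm5d* (1.36) and *Uty* (0.82) lay within the range of the other mice. *Mup3*, *Mup20* and *Mup-ps12* in that mouse lay within the range of its strain. The part of all these mice in the MUP values is shown by leaving them out. None of these omissions ended or created a call for a MUP cluster by diet in the comparison without a strain term.

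**Figure D1:**
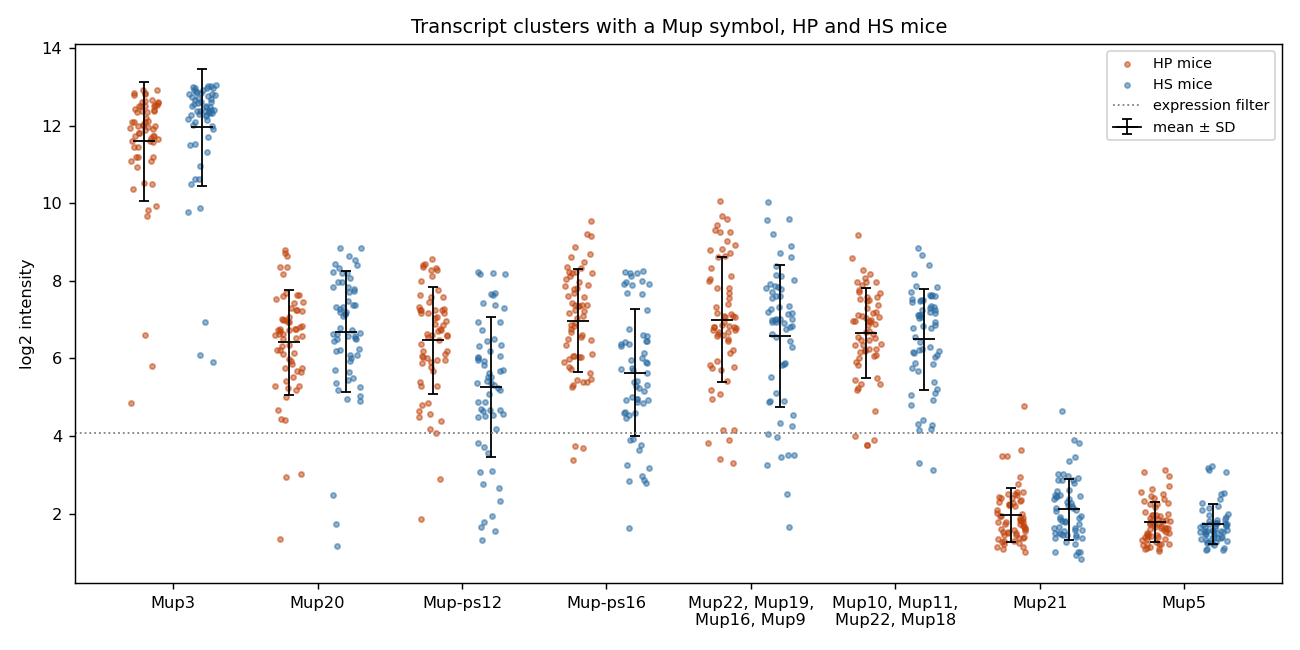
Log2 intensity of 8 clusters with a *Mup* symbol, with 1 point per mouse, HP mice at left and HS mice at right of each pair, and bars for the mean ± SD. The dotted line is the expression cut of 4.08. *Mup-ps12* and *Mup-ps16* sit higher in HP mice, *Mup3* and *Mup20* overlap between diets, and *Mup21* and *Mup5* lie mostly or wholly below the cut.

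Of the 5 clusters, *Mup3*, *Mup20* and *Mup-ps12* passed the filter on dim clusters, which kept a cluster with a median, or more than 1 in 8 of its mice, above the cut. *Mup3*, a MUP of the liver, was above the cut in every mouse, *Mup20* in 117 and *Mup-ps12* in 107. *Mup21* was above it in 2 mice and *Mup5*, a MUP known from secretory glands, in 0, so neither was tested.

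The *Mup-ps12* cluster, whose gene has the -ps of a pseudogene in its symbol but is protein coding in the RefSeq annotation, was higher on the HP diet. It had a lowest value of 1.86, a median of 6.62 and a highest of 8.56 in HP livers, against 1.32, 5.39 and 8.23 in HS livers. The 2 diets overlapped over most of their range, but their averages were 6.46 ± 1.37 in HP livers (SD, n = 63) and 5.25 ± 1.80 in HS livers (SD, n = 60). The difference was 1.21 ± 0.28 (log2, SE), 2.31-fold on the linear scale. Some livers of both diets were below the expression cut, and more of these were HS than HP livers. The size of the difference and its fold are therefore not firm.

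The *Mup3* cluster lay slightly lower on the HP diet. Its lowest, median and highest values were 4.84, 11.99 and 12.92 in HP livers, against 5.92, 12.39 and 13.04 in HS livers. The averages were 11.59 ± 1.53 in HP livers (SD, n = 63) and 11.96 ± 1.51 in HS livers (SD, n = 60), a difference of −0.37 ± 0.27 (log2, SE), and the diets overlapped almost completely.

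*Mup20* encodes darcin, the male urinary pheromone that attracts females. It spanned 1.35 to 8.78 in HP livers with a median of 6.64, against 1.16 to 8.84 with a median of 6.75 in HS livers. The difference of −0.27 ± 0.26 (log2, SE) was about as large as its error. This error comes from the fit without a strain term and includes the spread between strains, so it does not measure the difference within strains.

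The dim clusters overlapped between diets. *Mup21* averaged 1.96 ± 0.69 in HP livers (SD, n = 63) and 2.11 ± 0.79 in HS livers (SD, n = 60). *Mup5* averaged 1.78 ± 0.51 in HP livers and 1.72 ± 0.51 in HS livers (SD, n = 63 and 60). Values this far under the cut have no firm order.

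With diet as the only term, limma called 1 of the 3 clusters that passed, *Mup-ps12*, at a Benjamini-Hochberg adjusted p under 0.05. Over all 11712 clusters tested, 11.0% were called by diet (6.08% higher and 4.90% lower on HP), and the median difference was −0.01 (log2). Since diet was among the measures by which the genes were chosen, nothing is read from that count. With strain added as a term, *Mup3* was called as well, lower on HP, at a difference of −0.37 ± 0.07 (log2, SE), and the share called over all clusters was then 22.4%, with 11.3% lower on HP.

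**Figure D2:**
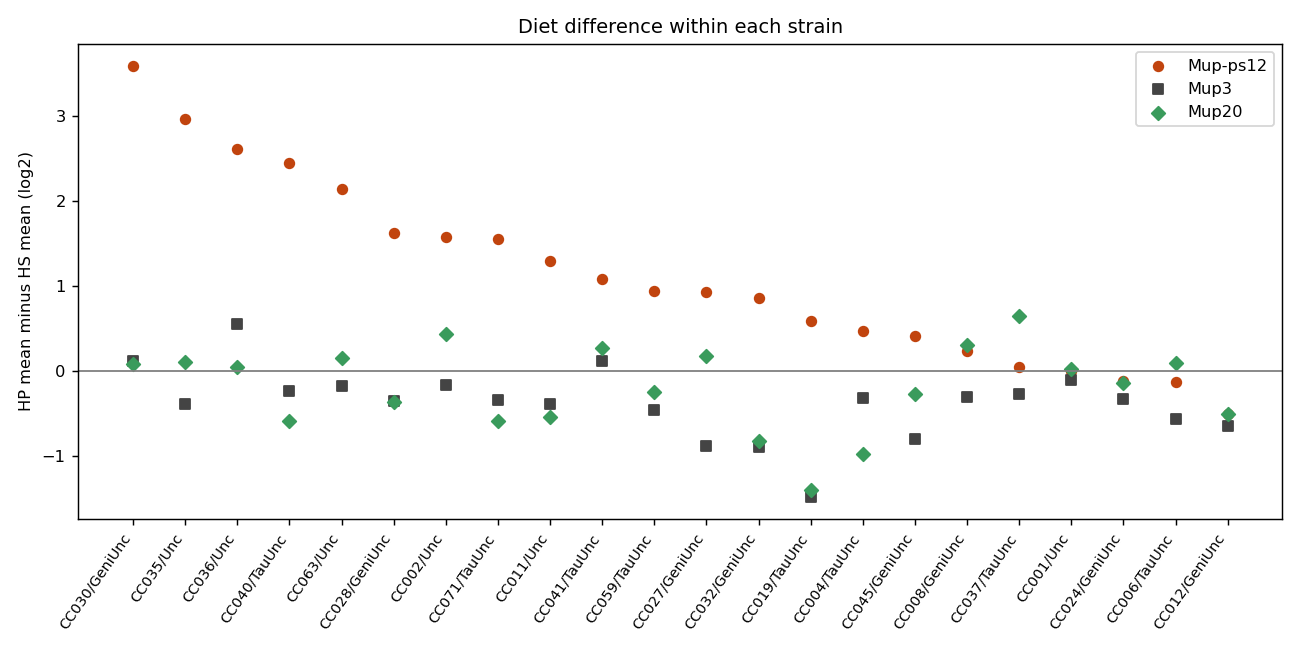
Difference of the HP mean and the HS mean (log2) of each strain for *Mup-ps12*, *Mup3* and *Mup20*, with the strains ordered by *Mup-ps12*. *Mup-ps12* runs between 3.59 and −0.50 and lies above 0 in 19 of 22 strains, with some HS mice below the expression cut at the upper end, where the size is not firm. *Mup3* lies below 0 in 19 of 22.

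Strain by strain, the *Mup-ps12* mean was higher on HP in 19 of 22 strains. In 11 strains every HP mouse was above every HS mouse, and in 1 every HP mouse was below. With 2 or 3 mice per group such a separation can arise by chance, and its share over all clusters was not counted. In CC030/GeniUnc the 3 HP livers had 5.30, 4.80 and 5.89, against 2.32, 1.32 and 1.56 in the 3 HS livers. The HS livers of that strain were all below the expression cut of 4.08 and the HP livers above it, so the size of their difference is not firm.

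In CC035/Unc the values were 8.33, 7.25 and 7.25 in HP livers, against 3.11 and 6.19 in HS livers. In CC036/Unc they were 4.39, 5.97 and 6.72 in HP livers, against 1.95, 4.64 and 2.66 in HS livers, so 1 HS liver overlapped the HP range. In both strains some HS livers were below the expression cut, and the size of the difference is not firm there either.

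Other strains showed little of this. The strain with the highest level, CC008/GeniUnc, averaged 8.41 on HP and 8.17 on HS. CC001/Unc averaged 4.98 on both diets, with 6.00, 6.06 and 2.88 in HP livers, against 4.88, 5.52 and 4.53 in HS livers. The HP liver at 2.88 was below the expression cut, so that HP mean is not firm. In CC012/GeniUnc the order was the other way, with 7.46 on HP and 7.96 on HS. CC006/TauUnc and CC024/GeniUnc also had the lower mean on HP. The means of CC006/TauUnc, 3.56 on HP and 3.69 on HS, were both below the expression cut, so their order is not firm.

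For *Mup3* the HP mean was the lower one in 19 of 22 strains. In 9 strains every HP mouse was below every HS mouse, and in 1 every HP mouse was above. Such a separation can arise by chance in groups this small. Its share over all clusters was not counted here either, and nothing is read from it. The largest difference with the lower mean on HP was in CC019/TauUnc at −1.48 (log2), where HP livers averaged 10.86 and HS livers 12.35. Its only HP livers had 11.20 and 10.52, and the first had the highest mean of pancreatic acinar markers, 10.3. CC036/Unc, CC041/TauUnc and CC030/GeniUnc had the higher mean on HP, by 0.55, 0.12 and 0.12 (log2). *Mup20* was evenly divided, higher on HP in 11 strains and lower in 11. Its differences lay between −1.39 in CC019/TauUnc, from the same livers, and 0.65 in CC037/TauUnc.

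Whether the diet difference itself varied between strains was tested with the 21 interaction terms of strain and diet, a contrast that was not used to choose the genes. For *Mup-ps12* the limma F was 2.09, with an unadjusted p of 0.0095 and an adjusted p of 0.77. For *Mup3* F was 1.80 (limma adjusted p = 0.99, unadjusted p = 0.032), and for *Mup20* it was 1.26 (limma adjusted p = 1.0, unadjusted p = 0.23). None of the 3 passed, beside 0.0427% of all clusters, and the differing strain values of *Mup-ps12* are therefore not shown to differ after correction. With 2 or 3 mice in each strain and diet group, the SD between mice of one group was 0.91 for *Mup-ps12*, 0.37 for *Mup3* and 0.53 for *Mup20* (log2).

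**Figure D3:**
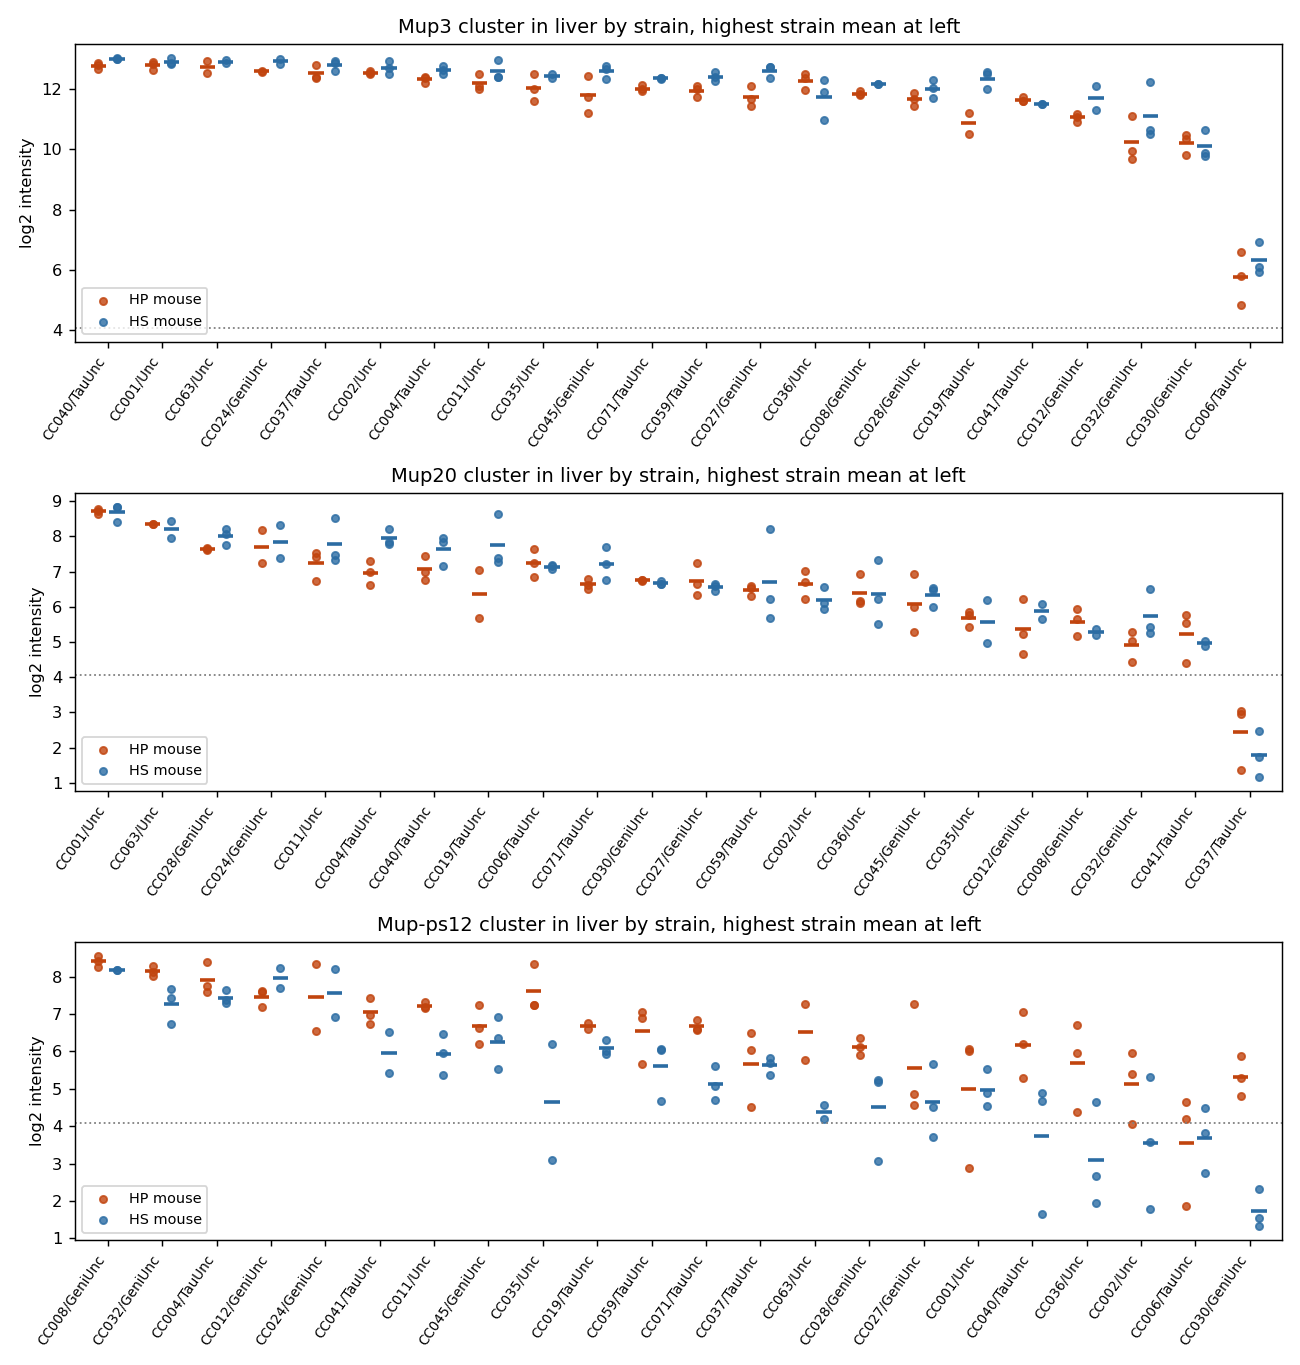
Log2 intensity of *Mup3*, *Mup20* and *Mup-ps12* in every mouse by strain, with the strain of highest mean at left, HP mice left of HS mice, short lines for the mean of a strain on a diet, and a dotted line at the expression cut of 4.08. CC006/TauUnc lies apart for *Mup3* at 4.84 to 6.93 and CC037/TauUnc for *Mup20* at 1.16 to 3.03.

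Strain took up more of the spread than diet, although 22 strain means take up more than the diet means by their number alone. For *Mup3* the 22 strain means held 93.0% of the sum of squares and the diet means 1.49%, for *Mup20* 88.3% and 0.858%, and for *Mup-ps12* 60.5% and 12.7%. The limma F test called all 3 by strain, beside 81.1% of all clusters tested, and nothing is read from that count either.

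CC006/TauUnc stood apart for *Mup3*. Its HP livers had 4.84, 5.81 and 6.61, and its HS livers 5.92, 6.10 and 6.93. The 117 livers of the other strains had a lowest value of 9.67, a median of 12.33 and a highest of 13.04, so no mouse of another strain came near it. The strain mean of 6.04 was 4.13 (log2) under that of CC030/GeniUnc, the next in order at 10.16, a 17.4-fold gap, and it rested on no single mouse.

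Apart from this step, neighbours in the order of *Mup3* overlapped. Of the 21 pairs of neighbouring strains, 20 had overlapping ranges. CC040/TauUnc was at the top with 12.88 ± 0.14 (SD, n = 6), followed by CC001/Unc with 12.84 ± 0.12 (SD, n = 6) and CC063/Unc with 12.82 ± 0.19 (SD, n = 4), and these 3 did not differ beyond their spread. Without CC006/TauUnc the range of strain means shrank to 2.72 (log2), against 6.85 with all strains.

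CC037/TauUnc stood apart for *Mup20*. Its HP livers had 2.94, 3.03 and 1.35, and its HS livers 1.74, 2.47 and 1.16. All 6 were below the expression cut, while the 117 other livers lay between 4.42 and 8.84 with a median of 6.74. No fold is given against values below the cut. The next strain in order was CC041/TauUnc, with a mean of 5.13.

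CC001/Unc had the highest *Mup20* values, between 8.40 and 8.84, with a mean of 8.70 ± 0.17 (SD, n = 6). Its range overlapped that of CC063/Unc, the second in order at 8.28 ± 0.21 (SD, n = 4). The gap below CC041/TauUnc was the single break between the ranges of neighbours, and without CC037/TauUnc the strain means spanned 3.58 (log2), against 6.59 with all strains, a width whose low end lies below the cut.

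The low strain of one cluster was not low in the other. CC006/TauUnc was the ninth strain for *Mup20* with a mean of 7.19 ± 0.26 (SD, n = 6), and CC037/TauUnc was the fifth for *Mup3* with 12.66 ± 0.24 (SD, n = 6). *Mup21* was highest in CC037/TauUnc, with 3.47, 3.49 and 4.77 in HP livers and 3.34, 4.64 and 3.01 in HS livers, against a median of 1.83 and a highest of 3.88 in the 117 other livers. The 2 mice in which *Mup21* was above the cut were both of CC037/TauUnc, the strain in which *Mup20* was below it in every mouse. The other *Mup21* values of that strain were below the cut and the cluster failed the filter, so its place at the top is not firm.

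*Mup-ps12* had no strain that stood apart, and all 21 pairs of neighbours overlapped. The strain means ran between 3.53 ± 2.03 in CC030/GeniUnc (SD, n = 6) and 8.32 ± 0.17 in CC008/GeniUnc (SD, n = 5). CC030/GeniUnc averaged 5.33 on HP and 1.73 on HS. CC006/TauUnc, second from the bottom, was low on both, at 3.56 on HP and 3.69 on HS.

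Another 4 clusters carry a *Mup* symbol without being among the 6 genes, and 3 of them passed the filter. *Mup-ps16*, named from the study's own table, averaged 6.97 ± 1.32 in HP livers (SD, n = 63) and 5.64 ± 1.64 in HS livers (SD, n = 60). It was higher on HP in 21 of 22 strains, with a difference of 1.34 ± 0.27 (log2, SE) over all mice. The study's table was made from these same livers, so no p-value is given and the difference is no separate support for that of *Mup-ps12*. The cluster shared by *Mup22*, *Mup19*, *Mup16* and *Mup9* averaged 7.0 on HP and 6.58 on HS (limma adjusted p = 0.43), and that shared by *Mup10*, *Mup11*, *Mup22* and *Mup18* averaged 6.65 on HP and 6.49 on HS (limma adjusted p = 0.72). *Mup6* was dim, at 1.19 on HP and 1.08 on HS. Over the 6 *Mup* clusters that passed, the mean was 7.52 ± 0.93 in HP livers (SD, n = 63) and 7.10 ± 1.14 in HS livers (SD, n = 60).

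**Figure D4:**
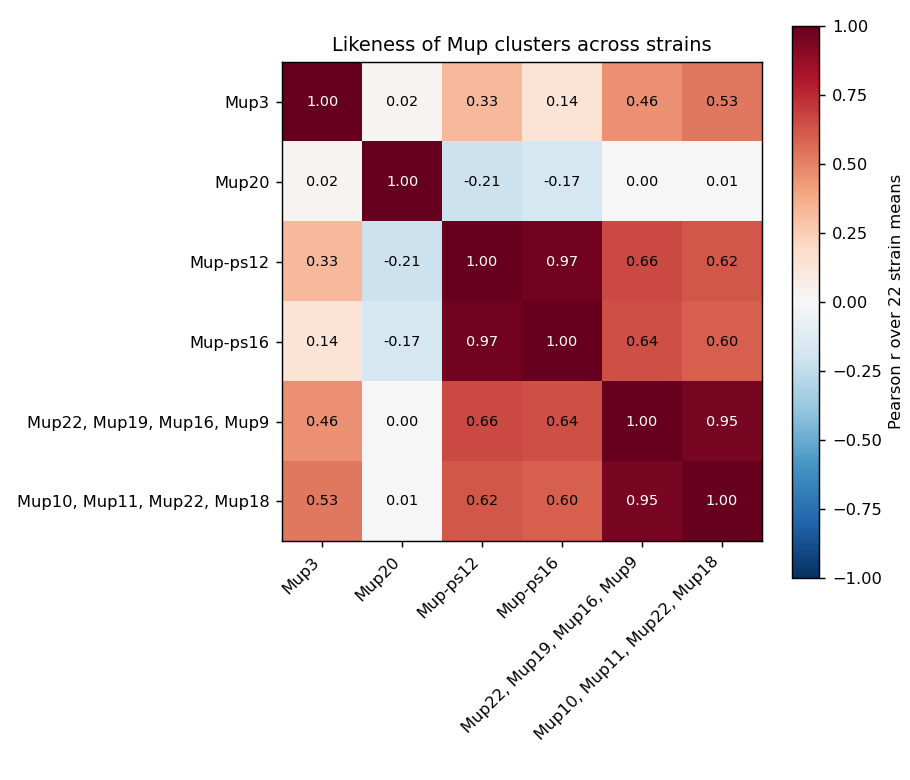
Pearson correlation over 22 strain means between the 6 clusters with a *Mup* symbol that passed the filter. *Mup-ps12* and *Mup-ps16* form one pair at 0.97 and the 2 clusters shared by several genes another at 0.95, and *Mup20* lies between −0.21 and 0.02 with the others.

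The clusters fell into unlike patterns across strains. Over the 22 strain means *Mup-ps12* correlated with *Mup-ps16* at r = 0.97, and over single mice, after the mean of each strain on each diet was taken out, at r = 0.71. The 2 clusters shared by several genes correlated with each other at 0.95 over strains and 0.79 within groups, and with *Mup-ps12* at 0.66 and 0.62 over strains. Array, animals and possibly probes are shared by these values, so r measures no separate genes.

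*Mup20* correlated with *Mup3* at 0.02 over the strain means, and at 0.55 over 20 strains once CC006/TauUnc and CC037/TauUnc were left out. *Mup21* and *Mup5* lay too far below the cut for their correlations to be read.

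Among 10941 other genes, the pattern most like *Mup3* over the 44 means of a strain on a diet was that of *Orm1*, an acute phase plasma protein also on chromosome 4 (r = 0.85). *Orm1* lay at 5.57 to 7.76 in CC006/TauUnc and at 10.03 to 12.34 in all other strains, and without CC006/TauUnc r fell to 0.24. The next were *Tmem184c* (0.69), *Stom* (0.69), *Aamdc* (0.67) and *Tm4sf1* (0.66), and of these *Tm4sf1* kept an r of 0.60 without that strain. At the other end stood *Gsn*, the actin-severing gelsolin (−0.79), *Mgst2* (−0.71) and *Smc3* (−0.65). *Gsn* was 10.23 to 10.71 in CC006/TauUnc and 4.21 to 6.81 elsewhere, and its r was −0.05 without it.

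For *Mup20* the most alike were *Mme* (0.68), *Gba2* (0.67), *Chaf1b* (0.65), *Npr2* (0.59) and *Scamp1* (0.57), and the most unlike *Cwc22* (−0.69), *Gimap8* (−0.55) and *Ndufa6* (−0.55). *Cwc22*, a splicing factor, was 9.35 to 9.86 in CC037/TauUnc and 4.89 to 6.12 elsewhere, and its r was 0.03 without that strain. For *Mup-ps12* the highest were *Pi4k2b* (0.67), *Fam126b* (0.63), *Serhl* (0.61), *Slc25a34* (0.60) and *Eci3* (0.59), and the lowest *Tpst2* (−0.65), *Rps6* (−0.63) and *Tm9sf4* (−0.63). These 8 kept r of 0.54 or more in size when CC030/GeniUnc was left out.

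Genes of the pathway that drives MUP output in liver were read for comparison. This list and those that follow were chosen with earlier results of these data known. Calls and p-values of their genes are therefore a description. Of 12 growth hormone signal genes, limma called 2 lower and 0 higher on HP, beside 4.90% and 6.08% of all clusters. *Stat5a*, a STAT5 isoform, averaged 5.23 ± 0.35 in HP livers (SD, n = 63) and 5.45 ± 0.36 in HS livers (SD, n = 60), lower on HP by −0.23 (log2, limma adjusted p = 0.0100). *Igfals*, which holds insulin-like growth factor in the circulation, averaged 8.26 ± 0.34 in HP livers and 8.47 ± 0.37 in HS livers (SD, n = 63 and 60, limma adjusted p = 0.016). *Stat5b*, the main STAT5 of liver, was 7.53 on HP and 7.54 on HS (limma adjusted p = 0.95), and the receptor *Ghr* 8.87 on HP and 8.91 on HS (limma adjusted p = 0.39). The median difference of the 12 was −0.06 (log2), against −0.01 over all clusters.

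**Figure D5:**
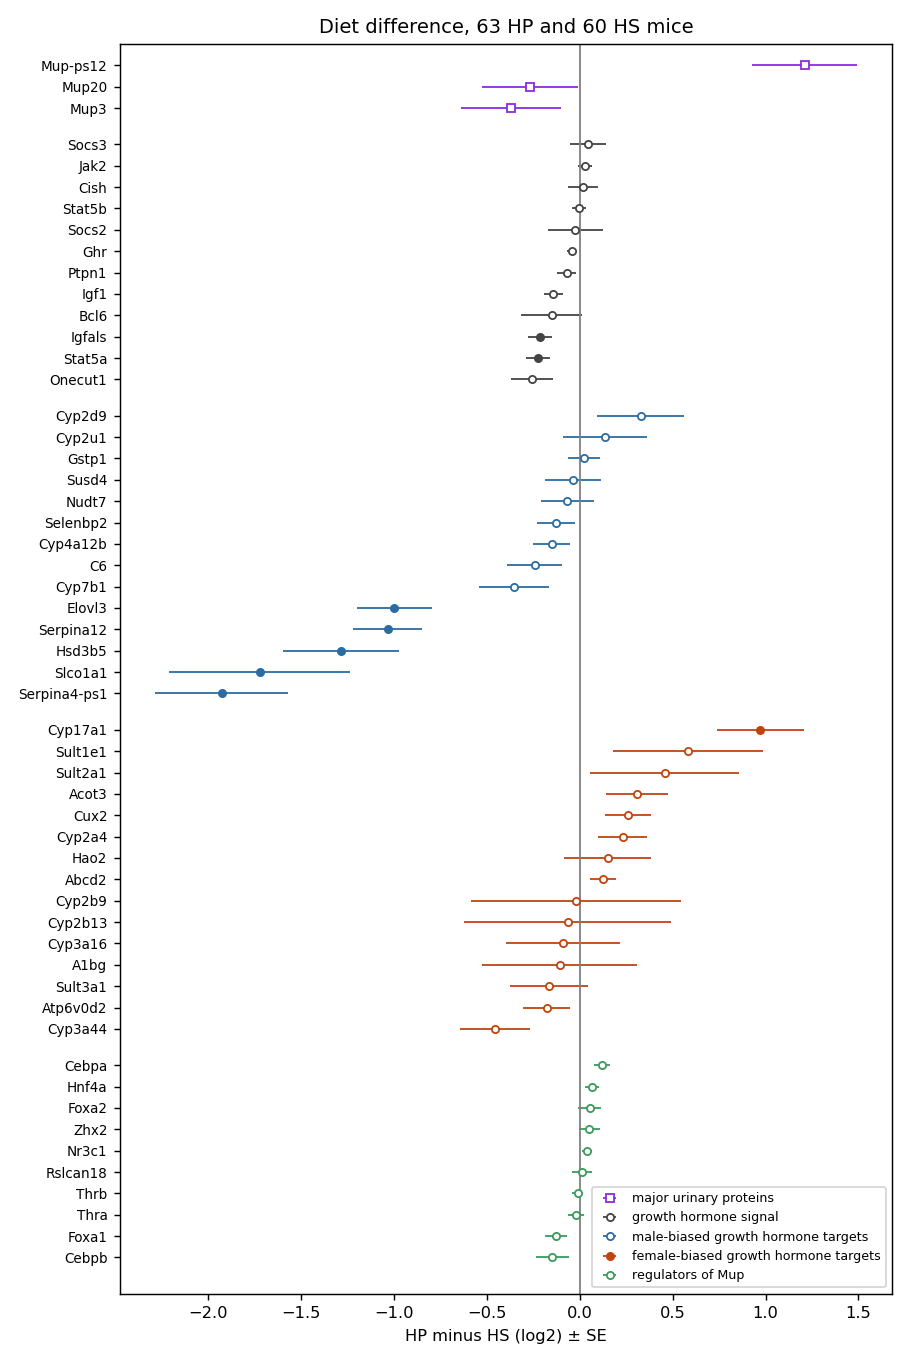
HP minus HS difference (log2, point) and its standard error (bar) for 3 MUP clusters and for the genes of 4 lists, with squares for the MUP clusters, which carry no mark of a call, and circles for the genes of the lists, filled where the limma adjusted p was under 0.05. *Mup-ps12* at 1.21 lies right of 0, and the 5 filled male-biased genes lie between −1.0 and −1.93.

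Of 16 male-biased targets of growth hormone with a cluster, 14 passed the filter and were tested. Of these 14, 5 fell on HP and 0 rose, beside 4.90% and 6.08% of all clusters. The 5 lay in a list with a median difference of −0.20 (log2). They were *Serpina4-ps1* (−1.93), *Slco1a1* (−1.72), an organic anion transporter, *Hsd3b5* (−1.29), a steroid-reducing enzyme, *Serpina12* (−1.03) and the fatty acid elongase *Elovl3* (−1.0), with limma adjusted p of 3.5e-05, 0.010, 0.0022, 1.8e-05 and 1.6e-04. With strain in the model the list had 7 lower and 1 higher, beside 11.3% and 11.1% of all clusters. *Slco1a1* was also the one gene of the list called by the interaction (limma adjusted p = 0.023). Of 15 female-biased targets 1 rose and 0 fell, beside 6.08% and 4.90% of all clusters. It was *Cyp17a1*, the steroid hydroxylase and lyase, at 10.29 ± 1.03 in HP livers (SD, n = 63) and 9.32 ± 1.54 in HS livers (SD, n = 60, limma adjusted p = 0.0018). The median difference of the 15 was 0.12 (log2), and with strain in the model 3 were higher and 1 lower, beside 11.1% and 11.3%. Without replicate 1 of each group *Slco1a1*, *Hsd3b5*, *Cyp17a1*, *Stat5a* and *Igfals* kept their direction and missed the threshold, while *Serpina4-ps1*, *Serpina12* and *Elovl3* passed. Without replicate 2 *Slco1a1*, *Stat5a* and *Igfals* missed it too.

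Of 11 regulators of *Mup* genes with a cluster, 10 passed the filter and were tested. None of these 10 was called by diet in limma, although 2 had an unadjusted p under 0.05, *Cebpa* higher and *Foxa1* lower on HP. With strain in the model *Cebpa* was called higher, and with array weights 2 of the 10 were called. *Zhx2*, one of these 10 regulators, was 6.40 ± 0.32 in HP livers (SD, n = 63) and 6.35 ± 0.32 in HS livers (SD, n = 60, limma adjusted p = 0.64). All 10 were called by strain, beside 81.1% of all clusters. Of 8 other lipocalins of liver, *Ambp*, the precursor of alpha-1-microglobulin, was lower on HP at 11.65 ± 0.16, against 11.73 ± 0.13 on HS (SD, n = 63 and 60, limma adjusted p = 0.039), and 0 were higher. The call of *Ambp* was lost without replicate 1, 2 or 3, in 7 of 22 omissions of a strain and under several other settings.

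Over the strain means, the male-biased targets did not track the MUP clusters closely. The median r of the 14 genes was 0.12 with *Mup3*, 0.14 with *Mup20* and −0.06 with *Mup-ps12*, and for the 15 female-biased genes it was −0.10, −0.18 and 0.16. Samples and arrays are common to both sides of each r.

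Markers of the cell types of liver were set beside these results. The 8 hepatocyte markers averaged 12.30 to 12.51 per mouse on HP and 12.24 to 12.52 on HS, and 0 of them were called by diet in limma, although 2 had an unadjusted p under 0.05. Of 10 Kupffer cell and macrophage markers 3 were lower on HP, and of 8 stellate cell markers 2 were, beside 4.90% of all clusters. The mean over the Kupffer cell and macrophage list was 5.82 to 8.24 in HP livers and 6.59 to 8.84 in HS livers. Without adjustment 9 of these 10 and 5 of these 8 were lower at a p under 0.05, beside 1454 of all 11712 clusters. With strain in the model the same numbers passed the adjusted threshold, beside 11.3% of all clusters. Of the hepatocyte markers *Tat* was then called higher and *Apob* lower on HP, beside 11.1% and 11.3%. Of 8 sinusoidal endothelium and 2 cholangiocyte markers, 0 were called in the fit without a strain term. The part of these cell types in the *Mup-ps12* difference was not tested. With a score of clock genes as a covariate the *Mup-ps12* difference was 1.21 (log2), and without the 5 mice of high pancreas markers it was 1.22, that of *Mup3* −0.36 and that of *Mup20* −0.40.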

How the data were processed

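Liver RNA of female CC mice (63 HP and 60 HS) was hybridized to Affymetrix MoGene 2.1 ST arrays. The authors deposited log2 intensities made with RMA, in which background is subtracted, arrays are brought to a common distribution and a cluster's probes become 1 value. Affymetrix Expression Console is named in the submitters' processing notes. Its version and the array's genome build are not stated there or in the methods. Arrays have no read depth, their number limits precision, and probe sequences and saturation were not checked.

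Strain and diet came from the labels, and 0 columns were left without a mouse. Replicates were separate mice. Symbols came from the platform annotation, which gives 23521 clusters 1 symbol, 1820 several and 16004 none, and 1 *Mup* cluster was named from the study's table. Clusters with a symbol were kept where the median, or over 1 in 8 mice, exceeded the mean of cluster medians (4.08), with 1 cluster per symbol, 11712 in all. Diet, strain (F test) and interaction (21 terms) were fitted with limma 3.58.1 (R 4.3.3) over all mice, and a call was a Benjamini-Hochberg adjusted p under 0.05. The fits were tested on simulated data. Correlations, alignments and figures used Python 3.11.15 and Biopython.

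All MUP clusters were named, every called gene of a list up to 6, and the 5 highest and 3 lowest r. The members and lists were chosen with earlier results of these data known. For that reason the member clusters are described by diet and strain without p-values, with nothing read from their calls. Genes of the lists are given with limma p-values, which for the same reason are a description and no separate support. Alternatives were the variance prior, the filter, 2 scalings, array weights, single-symbol clusters, strain or clock score in the model, and leaving out replicates, strains and doubtful mice. The 5 mice of high pancreas markers, and fits joining strain to an omission, were added after seeing the data.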

Additional observations from a re-analysis of the deposited data

Results flagged for a closer look

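Within strains, 6 of 110 sets of values (5 MUP clusters in 22 strains) held a mouse far from the rest of its strain by Dixon's criterion, where chance alone flags about 1 in 20. *Mup20* was 7.23 in a CC027/GeniUnc mouse on HP, against 6.34 to 6.65 in the others of its strain, and 8.22 in a CC059/TauUnc mouse on HS, against 5.69 to 6.59. *Mup-ps12* was 3.07 in a CC028/GeniUnc mouse on HS, against 5.19 to 6.36, and the same mouse had the highest *Mup21* of its strain at 2.62, against 1.59 to 1.93. *Mup5* was 3.18 in a CC032/GeniUnc mouse on HS, against 1.52 to 1.84, and 2.97 in a CC036/Unc mouse on HP, against 1.03 to 1.69, all under the expression cut. The interaction test called none of the 3 MUP clusters it was run on.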

How the results depend on the processing

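*Mup-ps12* was called by diet, higher on HP, under every alternative run, at 1.18 to 1.24 (log2) with replicates and 1.08 to 1.27 with strains left out. Since it was chosen with this contrast known, that is a description and no sign of stability. *Mup3* was called only with strain in the model, at −0.37 (log2). It was also called there without the mouse of low *Xist* (−0.37), without CC006/TauUnc (−0.36) or without the mice of high pancreas markers (−0.38). In each of these 4 fits 2 of the MUP clusters were called, beside 2627, 2537, 2626 and 2491 of 11712 clusters. Nothing is read from these counts. *Mup20* was called under no alternative. The 3 interaction tests stayed above the threshold in all alternatives run, and the range of strain means moved by over the spread between mice in 2 clusters. For *Mup3* it was 6.52 to 7.22 with replicates and 2.72 to 6.85 with strains left out, the lowest without CC006/TauUnc. For *Mup20* it was 6.22 to 6.89 and 3.58 to 6.59, the lowest without CC037/TauUnc.

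With strain in the model 8 male-biased genes, 4 female-biased genes (5 without the pancreas mice), 1 regulator (2 without CC006/TauUnc or the pancreas mice) and 4 lipocalins were called. Lipocalin calls were 0 without the filter, with repeated quantile normalization, with array weights and without the mouse of low *Xist*, so the call of *Ambp* was lost there. Array weights gave 2 regulators, and the clock score 1 regulator and 1 growth hormone signal gene, with *Stat5a* lost (adjusted p = 0.099). Leaving out a replicate number gave 0 to 2 growth hormone signal genes, 3 to 5 male-biased, 0 to 2 female-biased, 0 to 1 regulators and 0 lipocalins. Leaving out a strain gave 2 to 3, 5, 1 to 2, 0 to 1 and 0 to 1 in the same order. Without replicate 1, *Slco1a1* (adjusted p = 0.14), *Hsd3b5* (0.052), *Cyp17a1* (0.066), *Stat5a* (0.25) and *Igfals* (0.29) missed the threshold, and without replicate 2 *Slco1a1* (0.078), *Stat5a* (0.068) and *Igfals* (0.054) did. Over all clusters, 1286 were called by diet, 2627 with strain in the model, and 436, 598 and 988 without replicate 1, 2 and 3, with fewer mice in each. The causes of the other changes were not tested. No paired analysis was possible because the labels give mice no replicate numbers that pair diets. Identity of the MUP proteins was not run.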
